A study of Caenorhabditis elegans with 8 samples.

Results

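Larvae of the first stage (L1) of the Caenorhabditis elegans strain N2, the laboratory wild type, were compared with mixed-stage N2 embryos. The comparison rests on 4 of the 8 libraries of the series, 2 of N2 L1 larvae and 2 of N2 embryos, chosen by their strain and stage labels. The other 4 libraries are 2 of L1 larvae and 2 of mixed-stage embryos of FAS43, a strain in which all H3.3 genes are mutated (his-69 and his-70 by the joint allele uge44, his-72 by tm2066, his-74 by uge18 and his-71 by ok2289). All worms were grown at 20 °C, and no treatment is given in the labels. The series asked where and when the H3.3 genes, which encode a replacement histone, are used, and how they bear on temperature stress. The N2 stage step is its untreated, wild-type background. Genes were counted in 1 table per stage, and 13335 of the 16606 genes listed in either table were in both and could be compared. A further 2914 genes were in the L1 table alone and 357 in the embryo table alone, and these are described as separate sets.

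A C. elegans embryo starts from maternal RNA, switches on its own genome in the first cleavages, builds nearly all cells of the larva in a burst of rapid division, and then shapes the body and lays down a cuticle before it hatches. The L1 larva that hatches has differentiated muscle, neurons, gut and epidermis, and most of its cells no longer divide. Mixed-stage embryos hold cleavage stages and late, muscle-bearing stages side by side, so their RNA is an average over development. In such bulk samples, fewer cells of a type and less RNA per cell cannot be told apart.

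Total counts were 28974428 and 19013469 in N2 L1 larvae, against 30127179 and 24976442 in N2 embryos. The FAS43 libraries held between 17408914 and 27254898. Ribosomal RNA genes took 0.753% to 4.18% of counts. Whether the replicates of a group were grown as separate cultures is not stated in the labels, so the p-values measure a spread between replicates that may be only technical. Levels below are normalised read counts (CPM, reads scaled to a common library total) on library sizes scaled by TMM, a method that sets the bulk of genes to no change, and of each pair of values replicate 1 comes first.

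The 2 N2 embryo libraries stood apart from each other. On the first principal component of log2 CPM, which held 81.1% of the variance and separated the stages, the N2 L1 libraries lay at -126.5 and -128.4 and the N2 embryo libraries at 169.2 and 78.1. N2 embryo replicate 2 lay nearer to the larvae than replicate 1 did. The N2 L1 libraries were together on this component but differed by transcript length, as given near the end. Each count below that moved by more than 1.5 times when 1 N2 library was left out is given without that library too. Counts by gene class, such as pseudogenes, were not followed in this way.

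**Figure D1:**
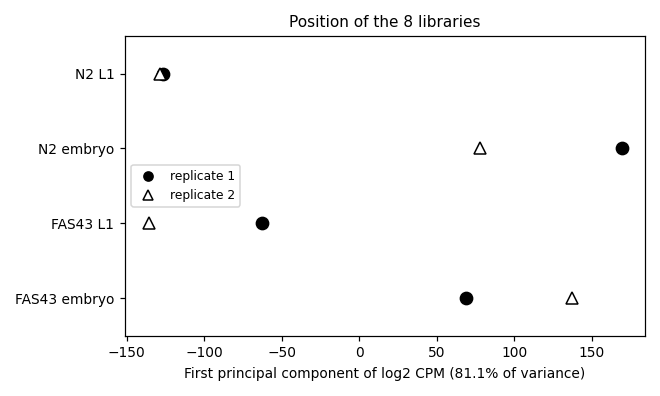
Position of each of the 8 libraries on the first principal component of log2 CPM (horizontal axis), 1 row per group. Filled circles are replicate 1 and open triangles replicate 2; the N2 embryo replicates lie at 169.2 and 78.1, the N2 L1 replicates at -126.5 and -128.4.

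Of the 13335 genes tested, 3014 were higher and 2157 lower in N2 L1 larvae than in N2 embryos, at an adjusted p under 0.05 by edgeR's quasi-likelihood test with Benjamini-Hochberg adjustment. These are 22.6% and 16.2% of tested genes, 38.8% together, and every list below is read against these shares. A gene that passed this test is called. The median log2 fold change was 0.00 over all tested genes, 3.21 among the genes called higher and -2.26 among those called lower. The smallest change that was called was 1.34 on the log2 scale. Changes of at least 8-fold were called for 1698 higher and 522 lower genes. Changes of at least 32-fold were called for 418 higher and 15 lower genes. Counts of called genes were 1957 higher and 803 lower without N2 L1 replicate 2, and 1174 higher (8.8%) and 509 lower (3.82%) without N2 embryo replicate 1. Without N2 L1 replicate 1, 2103 were higher and 1305 lower. The genes changed at least 8-fold numbered 1087 higher and 178 lower without N2 embryo replicate 1, and 812 lower without N2 embryo replicate 2. Those changed at least 32-fold numbered 935 higher and 99 lower without N2 embryo replicate 2, 275 and 0 without N2 embryo replicate 1, 87 lower without N2 L1 replicate 1, and 8 lower without N2 L1 replicate 2. In all 4 fits with 1 N2 library left out, 1123 of the genes remained called higher and 416 called lower.

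The groups did not overlap for most genes, whether called or not. Both N2 L1 libraries were above both N2 embryo libraries for 4977 genes (37.3%) and below them for 4743 (35.6%). Among called genes this held for 3010 of the 3014 higher and 2156 of the 2157 lower ones. For 84.3% of the genes called higher, N2 embryo replicate 2 was above N2 embryo replicate 1, and for 92.4% of the genes called lower it was below it. The matching shares over all tested genes were not counted, so this split is not read as particular to called genes. The early embryo marker end-1, a gene of the endoderm precursor, moved with this split, at 41.6 CPM in N2 embryo replicate 1 and 10.9 CPM in replicate 2, as did all 7 early markers analysed. Their part in the stage calls was not tested.

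Among genes that carry a symbol, the largest rises were in cuticle, secreted and substrate-adaptor genes and in 1 noncoding RNA. Genes with only a sequence name, such as C50F7.5 and F53A9.8 at log2 fold changes of 9.75 and 9.12, were among the largest rises as well. The largest change of all was in Y69H2.14 (chromosome V, 18638484 to 18639591, WBcel235), a protein-coding gene that Ensembl release 115 names col-42, a cuticle collagen. It had 682 and 857 CPM in N2 L1 larvae, against 0.434 and 0.888 CPM in N2 embryos (log2 fold change 10.17, SE 1.35, adjusted p = 0.000158). The collagen gene col-103 (chromosome IV, 762413 to 763678) had 393 and 489.5 CPM in N2 L1 larvae, against 1.05 and 1.24 CPM in N2 embryos (log2 fold change 8.58, SE 0.93, adjusted p = 8.93e-05). In col-98 (chromosome III, 13019008 to 13020226), another collagen gene, 402 and 430.3 CPM in N2 L1 larvae, against 1.09 and 1.81 CPM in N2 embryos were counted (log2 fold change 8.16, SE 0.94, adjusted p = 0.0001). For these 3 collagens both embryo libraries were close to no signal and both larval libraries far above it.

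The F-box gene fbxa-24 (chromosome II, 3816526 to 3818238), whose product belongs to a family of adaptors of ubiquitin ligases, had 273 and 201 CPM in N2 L1 larvae, against 0.217 and 0.391 CPM in N2 embryos (log2 fold change 9.58, SE 1.06, adjusted p = 8.93e-05). For ttr-26 (chromosome V, 18558758 to 18560288), a transthyretin-like secreted protein gene, there were 136 and 210.2 CPM in N2 L1 larvae, against 0 and 0.498 CPM in N2 embryos (log2 fold change 9.41, SE 1.40, adjusted p = 0.000264). The C-type lectin gene clec-52 (chromosome IV, 8167164 to 8168760) had 146 and 48.7 CPM in N2 L1 larvae, against 0.0362 and 0.426 CPM in N2 embryos (log2 fold change 8.69, SE 1.01, adjusted p = 0.000103). These 3 genes were close to the detection limit in embryos, so the size of their fold change depends on a few counts. The noncoding RNA tts-1 (chromosome X, 1504131 to 1504841) was well counted in both stages, at 1445 and 1735 CPM in N2 L1 larvae, against 4.31 and 5.93 CPM in N2 embryos (log2 fold change 8.28, SE 1.11, adjusted p = 0.000164). The remaining genes of this group were col-39 and grl-21, at log2 fold changes of 8.0 and 8.06. The 8 genes from col-103 to grl-21, taken for the size of their change, kept their call without each N2 library in turn.

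Of the 15 genes that fell at least 32-fold, 7 were fbxb F-box genes, 3 were sdz genes and 5 carry only a sequence name, among them Y106G6D.2 with the largest fall of all (log2 fold change -5.52). The most reduced gene with a symbol was sdz-14 (chromosome I, 12216252 to 12217772), one of a group named as zygotic targets of the maternal factor SKN-1, with 2.4 and 1.35 CPM in N2 L1 larvae, against 132 and 30.5 CPM in N2 embryos (log2 fold change -5.42, SE 0.86, adjusted p = 0.000385). The F-box gene fbxb-46 (chromosome II, 1570043 to 1571132) had 0.868 and 0.506 CPM in N2 L1 larvae, against 39.2 and 11.3 CPM in N2 embryos (log2 fold change -5.17, SE 0.93, adjusted p = 0.000718). The other 6 were sdz-9 and the F-box genes fbxb-34, fbxb-30, fbxb-105, fbxb-71 and fbxb-119, at log2 fold changes between -5.37 and -5.08. In these 8 genes N2 embryo replicate 1 held more than N2 embryo replicate 2, and neither overlapped the larvae.

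**Figure D2:**
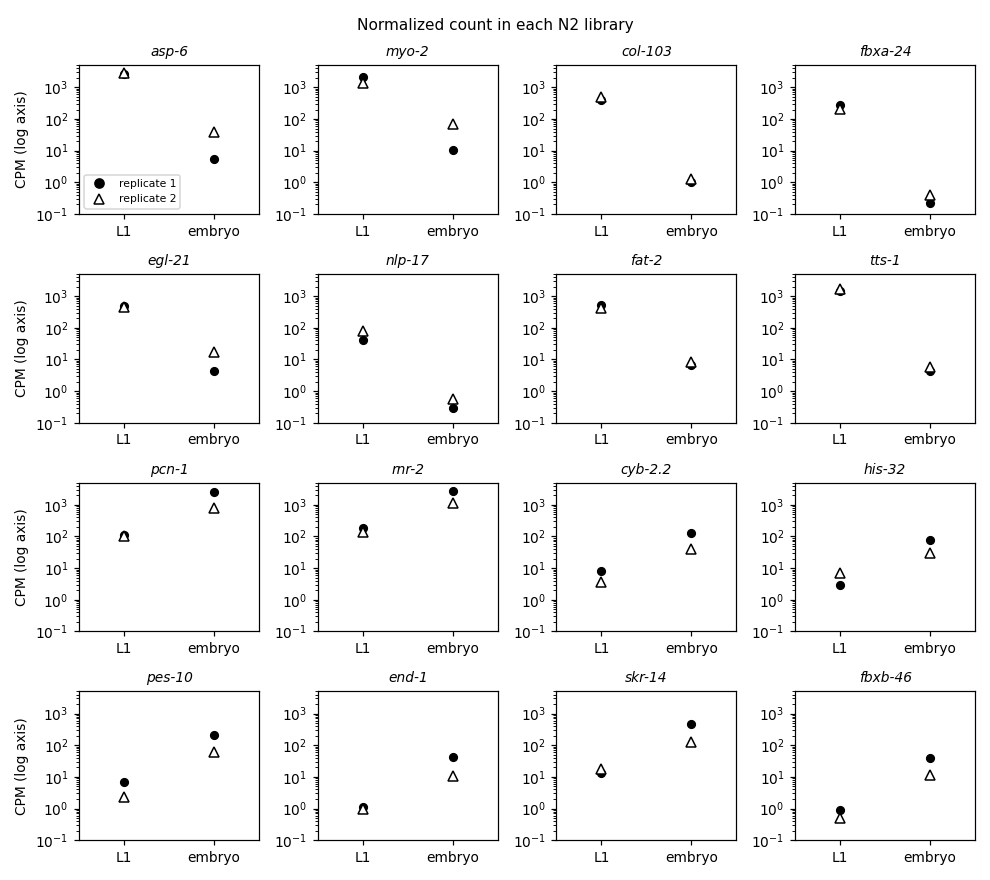
CPM (log axis) of 16 genes in the N2 L1 libraries (left in each panel) and the N2 embryo libraries (right). Filled circles are replicate 1 and open triangles replicate 2; the upper 8 genes were called higher in L1, such as asp-6 at 2624 and 2750 CPM against 5.36 and 39.4 CPM in embryos, and the lower 8 were called lower.

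Of the 50 gene lists, the neuropeptides had the highest share of higher genes. Of 89 tested neuropeptide genes, 84 were higher and 0 lower, with a median log2 fold change of 4.78, and with each N2 library left out in turn between 69 and 81 were higher. Many of these genes encode small precursors of peptides that neurons release as signals, but not all of them do. The flp family of FMRFamide-like precursors had 26 of 27 higher, and the nlp family 31 of 33. In flp-14 there were 49.7 and 63.7 CPM in N2 L1 larvae, against 0.398 and 0.675 CPM in N2 embryos (log2 fold change 6.71, SE 0.97, adjusted p = 0.000224). The precursor gene nlp-17 had 39.6 and 79.8 CPM in N2 L1 larvae, against 0.29 and 0.569 CPM in N2 embryos (log2 fold change 7.10, SE 1.03, adjusted p = 0.000231). The most abundant neuropeptide gene was nlp-33, an epidermal peptide gene of the antimicrobial type, with 213 and 349 CPM in N2 L1 larvae, against 6.3 and 15.1 CPM in N2 embryos (log2 fold change 4.71, SE 0.76, adjusted p = 0.000425). The first 2 were near no signal in both embryo libraries, whereas nlp-33 was clearly counted there.

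Most enzymes that make neuropeptides rose too. Of 11 genes of peptide processing and dense core vesicles, 8 were higher and 0 lower (1 lower without N2 L1 replicate 1). The carboxypeptidase gene egl-21 had 501 and 445 CPM in N2 L1 larvae, against 4.42 and 17.6 CPM in N2 embryos (log2 fold change 5.42, SE 0.82, adjusted p = 0.000275). The proprotein convertase gene egl-3 had 698 and 363 CPM in N2 L1 larvae, against 9.63 and 26.1 CPM in N2 embryos (log2 fold change 4.89, SE 0.76, adjusted p = 0.000337). The amidating monooxygenase gene pghm-1 had 222 and 243 CPM in N2 L1 larvae, against 3.22 and 6.01 CPM in N2 embryos (log2 fold change 5.65, SE 0.75, adjusted p = 0.000158). All 3 were far above both embryo libraries in both larval libraries.

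Genes of classical transmitters rose less evenly. Of 20 genes that make or load transmitters, 14 were higher and 0 lower (9 without N2 L1 replicate 1 and 7 without N2 embryo replicate 1). The gene glt-1, taken with them, encodes a glutamate uptake transporter that neither makes nor loads transmitter. It had 132 and 78.4 CPM in N2 L1 larvae, against 0.145 and 1.96 CPM in N2 embryos (log2 fold change 6.64, SE 1.09, adjusted p = 0.000443). In eat-4, which encodes the vesicular glutamate transporter, 39.4 and 23.3 CPM in N2 L1 larvae, against 0.29 and 1.42 CPM in N2 embryos were counted (log2 fold change 5.19, SE 0.97, adjusted p = 0.000901). The choline transporter gene cho-1 had 29.5 and 16.47 CPM in N2 L1 larvae, against 0.398 and 0.782 CPM in N2 embryos (log2 fold change 5.27, SE 0.88, adjusted p = 0.000501). The acetylcholine loader unc-17 and the GABA-making enzyme gene unc-25 were higher as well, at log2 fold changes of 4.27 and 3.82. Of 26 genes of the vesicle release machinery, shared in part with other secretory cells, 10 were higher (3 without N2 L1 replicate 1 and 1 without N2 embryo replicate 1) and 0 lower (1 lower without N2 L1 replicate 1). Among them cpx-1, the complexin gene, had 51.1 and 56.5 CPM in N2 L1 larvae, against 0.833 and 2.24 CPM in N2 embryos (log2 fold change 5.13, SE 0.86, adjusted p = 0.000499).

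Sensory genes split by role. Of 30 genes of sensory transduction, 14 were higher and 0 lower (9 without N2 L1 replicate 1 and 4 without N2 embryo replicate 1). The touch channel gene mec-4 had 16 and 20.5 CPM in N2 L1 larvae, against 0.29 and 1.31 CPM in N2 embryos (log2 fold change 4.50, SE 0.93, adjusted p = 0.00159). Its touch neuron companion mec-18 had 35.7 and 48.7 CPM in N2 L1 larvae, against 0.145 and 1.53 CPM in N2 embryos (log2 fold change 5.65, SE 1.04, adjusted p = 0.000856). By contrast, of 51 ciliary and transport genes, which build the sensory cilium, 5 were higher and 1 was lower (2 without N2 L1 replicate 1, 1 without N2 embryo replicate 1, 3 without N2 L1 replicate 2 and 8 without N2 embryo replicate 2 for the higher count). The lower one was dyf-7, a gene of dendrite anchoring in the embryo, which lost its call without each N2 library in turn. The ciliary list had a median of 1.01. Of 50 tested chemoreceptor genes, 17 were higher (8 without N2 L1 replicate 1, 5 without N2 embryo replicate 1 and 8 without N2 L1 replicate 2) and 4 lower (2 without N2 L1 replicate 1, 0 without N2 embryo replicate 1 and 0 without N2 L1 replicate 2), and a further 173 were in the L1 table alone and 33 in the embryo table alone. The best counted of them, srr-4, had 140.1 and 193 CPM in N2 L1 larvae, against 7.64 and 21.8 CPM in N2 embryos (log2 fold change 3.5, SE 0.66, adjusted p = 0.000943).

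Families of ion channels, receptors and globins, taken by their symbol and picked after their values were seen, had many higher and no lower members. The tandem-pore potassium channel genes (twk) had 23 of 33 higher and 0 lower (12 without N2 L1 replicate 1 and 8 without N2 embryo replicate 1). The globin genes (glb) had 24 of 27 higher and 0 lower (8 without N2 embryo replicate 1). The neuropeptide receptor genes (npr) had 19 of 27 higher and 0 lower (7 without N2 embryo replicate 1). Ligand-gated channel genes (lgc) had 19 of 30 higher and 0 lower (6 without N2 L1 replicate 1, 2 without N2 embryo replicate 1 and 8 without N2 L1 replicate 2).

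Among the transcription factors that specify neurons, most called members were lower. Of 29 proneural and neuron fate genes, 11 were lower (6 without N2 embryo replicate 1 and 7 without N2 L1 replicate 2) and 1 was higher (0 without N2 L1 replicate 1, 0 without N2 embryo replicate 1, 0 without N2 L1 replicate 2 and 2 without N2 embryo replicate 2). The proneural gene hlh-3, of the achaete-scute family, had 6.21 and 5.45 CPM in N2 L1 larvae, against 133 and 43.4 CPM in N2 embryos (log2 fold change -3.92, SE 0.72, adjusted p = 0.000846). Its relative hlh-14 had 5.11 and 2.25 CPM in N2 L1 larvae, against 79.1 and 29.5 CPM in N2 embryos (log2 fold change -3.87, SE 0.84, adjusted p = 0.00226). Their common partner hlh-2 had 57.6 and 35.2 CPM in N2 L1 larvae, against 359.8 and 222 CPM in N2 embryos (log2 fold change -2.65, SE 0.60, adjusted p = 0.00278). The exception was mec-3, which keeps touch neurons in their fate and is used in the larva, at a log2 fold change of 2.38; its call was lost without either N2 L1 library and without N2 embryo replicate 1.

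Muscle genes were called higher in both the body wall and the pharynx. Of 43 contractile genes of body wall muscle, 22 were higher and 0 lower (7 without N2 embryo replicate 1), with a median log2 fold change of 1.61. The troponin T gene tnt-2 had 176 and 415 CPM in N2 L1 larvae, against 0.977 and 10.4 CPM in N2 embryos (log2 fold change 5.70, SE 1.00, adjusted p = 0.000654). The troponin I gene tni-3 had 38.4 and 148 CPM in N2 L1 larvae, against 1.23 and 6.33 CPM in N2 embryos (log2 fold change 4.62, SE 0.87, adjusted p = 0.000945). The main myosin heavy chain gene, unc-54, had 8347 and 4888 CPM in N2 L1 larvae, against 189.8 and 615 CPM in N2 embryos (log2 fold change 4.04, SE 0.98, adjusted p = 0.00429). Its call, those of the myosin gene myo-3 and of the paramyosin gene unc-15, were lost without N2 embryo replicate 1. N2 embryo replicate 2 held more of all 3 than replicate 1. The muscle regulator unc-120 went the other way, at a log2 fold change of -1.41, and lost its call without N2 embryo replicate 1 and without either N2 L1 library.

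The pharynx list was more strongly changed. Of 14 tested genes, 10 were higher and 0 lower, between 9 and 11 without each N2 library, with a median of 4.06. The pharyngeal myosin gene myo-2 had 2121 and 1366 CPM in N2 L1 larvae, against 10.8 and 67.8 CPM in N2 embryos (log2 fold change 5.47, SE 0.94, adjusted p = 0.000608). The pharyngeal myosin gene myo-1 had 1305 and 603 CPM in N2 L1 larvae, against 7.17 and 47.1 CPM in N2 embryos (log2 fold change 5.13, SE 0.93, adjusted p = 0.000762). The gene abu-8, whose product is linked to the pharyngeal cuticle, had 142 and 222 CPM in N2 L1 larvae, against 0.615 and 5.44 CPM in N2 embryos (log2 fold change 5.91, SE 0.88, adjusted p = 0.000264). In these genes N2 embryo replicate 2 was well above N2 embryo replicate 1 and still far below the larvae.

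Most gut genes of digestion and defence rose. Of 46 tested genes, 31 were higher and 0 lower, between 21 and 35 without each N2 library, with a median of 3.76. The aspartyl protease gene asp-6 (chromosome V, 8267511 to 8268937) was the most abundant, at 2624 and 2749.8 CPM in N2 L1 larvae, against 5.36 and 39.4 CPM in N2 embryos (log2 fold change 6.91, SE 1.23, adjusted p = 0.000687). The lysozyme gene lys-3 had 72 and 91 CPM in N2 L1 larvae, against 0.181 and 0.462 CPM in N2 embryos (log2 fold change 7.96, SE 1.09, adjusted p = 0.000181). The metallothionein gene mtl-1 rose too (log2 fold change 7.58, SE 1.02, adjusted p = 0.000164). The saposin-like gene spp-5 and the protease gene asp-5 rose as well, at log2 fold changes of 5.17 and 5.36. The gut regulator elt-2, a GATA factor active from mid-embryo on, was not called at a log2 fold change of -0.83 (adjusted p = 0.251).

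The C-type lectins moved in both directions. Of 63 tested, 34 were higher (18 without N2 embryo replicate 1) and 7 lower (4 without N2 L1 replicate 1 and 4 without N2 embryo replicate 1), and 60 more were in the L1 table alone. The gene clec-65 had 97.8 and 119 CPM in N2 L1 larvae, against 0.109 and 0.96 CPM in N2 embryos (log2 fold change 7.65, SE 1.09, adjusted p = 0.000224). The gene clec-87 was the most abundant lectin and had 222 and 115 CPM in N2 L1 larvae, against 4656 and 1242 CPM in N2 embryos (log2 fold change -4.13, SE 0.86, adjusted p = 0.0017). Its relative clec-88 had 41.7 and 26.7 CPM in N2 L1 larvae, against 966 and 292 CPM in N2 embryos (log2 fold change -4.20, SE 0.75, adjusted p = 0.000687). The summed CPM of the list was lower in the larvae, 2880 and 2675, than in the embryos, 9352 and 3651, although most called members were higher. Galectin genes (lec), picked after their values were seen, had 9 of 11 higher (4 without N2 embryo replicate 1).

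Genes for handling foreign chemicals rose in part. Of 32 glutathione S-transferases, 20 were higher (8 without N2 embryo replicate 1 and 11 without N2 L1 replicate 2) and 0 lower. In gst-24 there were 34 and 65.4 CPM in N2 L1 larvae, against 0.615 and 0.711 CPM in N2 embryos (log2 fold change 6.21, SE 0.85, adjusted p = 0.000183). In gst-5 there were 196 and 349 CPM in N2 L1 larvae, against 5.18 and 6.61 CPM in N2 embryos (log2 fold change 5.53, SE 0.71, adjusted p = 0.000141). Of 42 cytochrome P450 genes, 16 were higher (6 without N2 embryo replicate 1 and 9 without N2 L1 replicate 2) and 2 lower (0 without N2 L1 replicate 1, 0 without N2 embryo replicate 1 and 0 without N2 L1 replicate 2). Of 50 UDP-glucuronosyltransferases, 15 were higher (7 without N2 L1 replicate 1 and 4 without N2 embryo replicate 1) and 2 lower (0 without N2 L1 replicate 1, 0 without N2 embryo replicate 1 and 0 without N2 L1 replicate 2). Shares of called genes in the last 2 lists were nearer to the 22.6% of all genes than those of the transferases.

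Metabolic lists held more higher than lower members, as did all tested genes (3014 against 2157). Of 46 lipid genes, 15 were higher (7 without N2 embryo replicate 1 and 8 without N2 L1 replicate 2) and 4 lower (1 without N2 L1 replicate 1, 0 without N2 embryo replicate 1 and 1 without N2 L1 replicate 2). The fatty acid desaturase gene fat-2 was the clearest, at 536 and 413 CPM in N2 L1 larvae, against 6.59 and 8.28 CPM in N2 embryos (log2 fold change 6.0, SE 0.72, adjusted p = 0.000134). The lysosomal lipase gene lipl-5 had 50.8 and 58.7 CPM in N2 L1 larvae, against 0.579 and 0.604 CPM in N2 embryos (log2 fold change 6.52, SE 0.89, adjusted p = 0.000183). Of 31 genes of the glyoxylate cycle, gluconeogenesis and trehalose, which turn stored fat into sugar, 15 were higher (4 without N2 embryo replicate 1) and 2 lower (0 without N2 L1 replicate 1, 0 without N2 embryo replicate 1 and 1 without N2 L1 replicate 2). The glyoxylate cycle gene icl-1 was abundant in both stages, at 2014 and 2021 CPM in N2 L1 larvae, against 635 and 974 CPM in N2 embryos, and was not called (log2 fold change 1.33, SE 0.66, adjusted p = 0.116). Glycogen synthase, gsy-1, was higher, at 92.8 and 40.9 CPM in N2 L1 larvae, against 5.76 and 8.46 CPM in N2 embryos (log2 fold change 3.23, SE 0.68, adjusted p = 0.00175). Of 31 genes linked to the factor DAF-16 and to starvation, 8 were higher (4 without N2 embryo replicate 1) and 3 lower (1 without N2 L1 replicate 1, 0 without N2 embryo replicate 1 and 1 without N2 L1 replicate 2). The higher share of this last list was near the 22.6% of all tested genes. The labels do not say whether the larvae were fed.

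Cuticle collagens of the col family formed the second large rising group. Of 81 tested, 53 were higher (31 without N2 embryo replicate 1 and 30 without N2 L1 replicate 2), with a median of 2.99, and 1, col-99, was lower. That gene encodes a transmembrane collagen rather than a cuticle collagen, and it lost its call without either N2 embryo library and without N2 L1 replicate 2. Another 45 col genes were in the L1 table alone, against 2 in the embryo table alone. The summed CPM of the tested col genes was 5548 and 9874 in N2 L1 larvae, against 549 and 1535 in N2 embryos. The 5 furrow collagens that shape the annuli of the cuticle behaved unlike them, with 0 called in either direction and a median of -1.54. Of these dpy-10 had 102 and 166 CPM in N2 L1 larvae, against 302 and 490.2 CPM in N2 embryos (log2 fold change -1.57, SE 0.77, adjusted p = 0.113). The furrow collagens dpy-7, dpy-2 and dpy-3 were likewise not called, at log2 fold changes of -1.54, -1.89 and -1.23. DESeq2, run as an alternative, called 1 of the 5 lower.

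Matrix genes of the embryo fell in part, and most genes of collagen processing and molting were not called. Of 13 genes of the precuticle, the transient coat that covers the embryo before its cuticle, 6 were lower (2 without N2 L1 replicate 1, 2 without N2 embryo replicate 1 and 1 without N2 L1 replicate 2) and 0 higher (1 without N2 embryo replicate 2). The fibrillin-related gene fbn-1 was the clearest, at 87.7 and 18.5 CPM in N2 L1 larvae, against 660.5 and 651 CPM in N2 embryos (log2 fold change -3.62, SE 0.85, adjusted p = 0.00349). The coat gene let-653 fell as well (log2 fold change -2.26, SE 0.60, adjusted p = 0.00715), and lost its call without N2 L1 replicate 2. Of 29 genes of collagen processing and molting, 3 were higher (1 without N2 L1 replicate 1 and 1 without N2 embryo replicate 1) and 1 lower, mlt-11, which lost its call without each library in turn. The peroxidase gene mlt-7, which cross-links cuticle, had 137 and 41.1 CPM in N2 L1 larvae, against 1.74 and 7.68 CPM in N2 embryos (log2 fold change 4.24, SE 0.92, adjusted p = 0.00215).

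Of 66 genes related to Hedgehog and to its receptor Patched, which in nematodes act mostly in epidermis and molting, 15 were higher (8 without N2 embryo replicate 1) and 3 lower (0 without N2 L1 replicate 1, 0 without N2 embryo replicate 1 and 0 without N2 L1 replicate 2). The higher share of this list was near the 22.6% of all tested genes, and its median log2 fold change was 0.60. Its 2 largest rises are therefore not typical of the list. The ground-like gene grl-21 had 191 and 231 CPM in N2 L1 larvae, against 0.181 and 1.39 CPM in N2 embryos (log2 fold change 8.06, SE 1.26, adjusted p = 0.000337). The Patched-related gene ptr-8 had 106.2 and 35.4 CPM in N2 L1 larvae, against 0.217 and 0.782 CPM in N2 embryos (log2 fold change 7.13, SE 1.09, adjusted p = 0.000316). The transthyretin-like genes (ttr), a nematode family of small secreted proteins, had 28 of 37 higher, between 19 and 29 without each N2 library, and 3 lower (1 without N2 L1 replicate 1, 0 without N2 embryo replicate 1 and 1 without N2 L1 replicate 2). The list's median was 4.49, yet its most abundant member fell: ttr-50 had 181 and 209.8 CPM in N2 L1 larvae, against 3421 and 1357 CPM in N2 embryos (log2 fold change -3.61, SE 0.84, adjusted p = 0.0033), and lost its call without N2 embryo replicate 1.

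**Figure D3:**
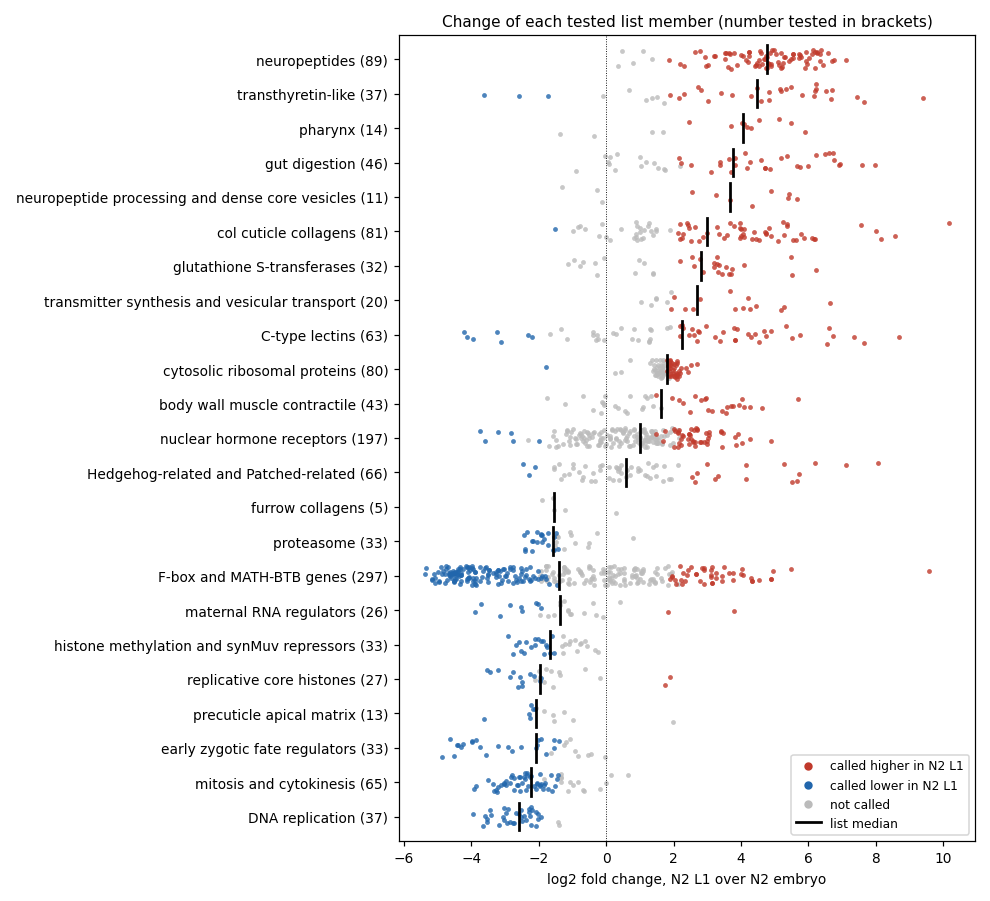
Log2 fold change of N2 L1 over N2 embryo (horizontal axis) for each tested member of 23 gene lists, 1 point per gene, with the list median as a black bar. Red points were called higher in L1, blue lower and grey neither; DNA replication has a median of -2.58 and neuropeptides of 4.78, against 0.00 over all genes.

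Most regulators of early fate fell. Of 33 genes that the young embryonic genome uses to assign cell fates, 24 were lower (14 without N2 embryo replicate 1 and 13 without N2 L1 replicate 2) and 0 higher, with a median of -2.09, and 6 more were in the embryo table alone. The early transcript pes-10, one of the first to be made, had 6.78 and 2.36 CPM in N2 L1 larvae, against 210.2 and 59.6 CPM in N2 embryos (log2 fold change -4.87, SE 0.79, adjusted p = 0.000431). The endoderm GATA factor gene end-1 had 1.14 and 0.956 CPM in N2 L1 larvae, against 41.6 and 10.9 CPM in N2 embryos (log2 fold change -4.64, SE 0.89, adjusted p = 0.00106). The mesoderm homeobox gene ceh-51 had 1.67 and 1.74 CPM in N2 L1 larvae, against 57.6 and 14.2 CPM in N2 embryos (log2 fold change -4.39, SE 0.84, adjusted p = 0.00101). N2 embryo replicate 1 held more of these 3 genes than N2 embryo replicate 2, and both lay above both larval libraries. The T-box genes tbx-37 and tbx-38, used in descendants of the anterior blastomere, fell at log2 fold changes of -4.31 and -4.43. The most abundant gene of the list, skn-1, encodes the maternal factor SKN-1 and was not called. It had 296 and 157 CPM in N2 L1 larvae, against 183 and 280 CPM in N2 embryos, and these groups overlap.

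Maternal regulators of translation fell in part. Of 26 RNA regulators supplied by the mother, 9 were lower (3 without N2 embryo replicate 1 and 3 without N2 L1 replicate 2) and 2 higher (0 without N2 L1 replicate 1 and 1 without N2 embryo replicate 1). The posterior fate gene pos-1 (chromosome V, 8414086 to 8415254) had 108.4 and 48 CPM in N2 L1 larvae, against 1541 and 488 CPM in N2 embryos (log2 fold change -3.70, SE 0.77, adjusted p = 0.00175). The Nanos gene nos-2, translated in germline precursors, had 4.57 and 2.98 CPM in N2 L1 larvae, against 85.4 and 27.9 CPM in N2 embryos (log2 fold change -3.90, SE 0.75, adjusted p = 0.00109). The higher ones were lip-1, which is on the list but encodes a phosphatase and not an RNA regulator, and lin-41. The gene lin-41 had 176 and 24.2 CPM in N2 L1 larvae, against 5.94 and 8.42 CPM in N2 embryos (log2 fold change 3.80, SE 0.80, adjusted p = 0.00183). This gene also acts in the larval timing pathway, its larval libraries differed from each other, and its call was lost without N2 L1 replicate 1. Of 13 eggshell genes 2 were lower (0 without N2 L1 replicate 1, 0 without N2 embryo replicate 1, 1 without N2 L1 replicate 2 and 1 without N2 embryo replicate 2), and of 21 genes of P granules and germline small RNA 5 were lower (1 without N2 embryo replicate 1, 1 without N2 L1 replicate 2 and 2 without N2 embryo replicate 2). None of either list was called higher.

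Most cell division genes fell. Of 37 DNA replication genes, 35 were lower (18 without N2 embryo replicate 1 and 19 without N2 L1 replicate 2) and 0 higher, with a median of -2.58, and both N2 L1 libraries were below both N2 embryo libraries for all 37. Their summed CPM was 1871 and 1552 in N2 L1 larvae, against 15637 and 8507 in N2 embryos. The gene pcn-1 (chromosome IV, 4047937 to 4049448), for the sliding clamp PCNA, had 111 and 105 CPM in N2 L1 larvae, against 2582 and 772 CPM in N2 embryos (log2 fold change -3.96, SE 0.79, adjusted p = 0.00133). The ribonucleotide reductase gene rnr-2 had 179 and 143 CPM in N2 L1 larvae, against 2814 and 1105 CPM in N2 embryos (log2 fold change -3.60, SE 0.78, adjusted p = 0.00226). The clamp loader gene rfc-3 had 28.1 and 27.8 CPM in N2 L1 larvae, against 533 and 164 CPM in N2 embryos (log2 fold change -3.64, SE 0.68, adjusted p = 0.000907). The helicase genes mcm-7 and mcm-2 fell at log2 fold changes of -2.78 and -2.58, and both lost their call without N2 L1 replicate 2.

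Of 65 genes of mitosis and cytokinesis, 50 were lower (25 without N2 embryo replicate 1 and 28 without N2 L1 replicate 2) and 0 higher, with a median of -2.21. The cyclin B gene cyb-2.1 had 3.81 and 1.91 CPM in N2 L1 larvae, against 69 and 18.8 CPM in N2 embryos (log2 fold change -3.93, SE 0.79, adjusted p = 0.00133). Its neighbour in sequence cyb-2.2 had 8.28 and 3.54 CPM in N2 L1 larvae, against 133 and 41.2 CPM in N2 embryos (log2 fold change -3.87, SE 0.73, adjusted p = 0.000968). The mitotic kinase gene cdk-1 had 62 and 49.8 CPM in N2 L1 larvae, against 827 and 309 CPM in N2 embryos (log2 fold change -3.34, SE 0.68, adjusted p = 0.00147). The most abundant gene of the list, the B-type cyclin gene cyb-3, had 362 and 161 CPM in N2 L1 larvae, against 2788 and 1773 CPM in N2 embryos (log2 fold change -3.12, SE 0.80, adjusted p = 0.00603), and lost its call without N2 embryo replicate 1 and without N2 L1 replicate 2. As cyb-2.1 and cyb-2.2 are near copies, reads may be split between them.

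Most called histone genes were lower. Of 27 replicative core histone genes, whose messages are made in S phase and mostly lack a poly(A) tail in animals, 13 were lower (1 without N2 L1 replicate 1, 2 without N2 embryo replicate 1 and 20 without N2 embryo replicate 2) and 2 higher (1 without N2 embryo replicate 1, 0 without N2 L1 replicate 2 and 1 without N2 embryo replicate 2). In his-32 there were 3 and 6.86 CPM in N2 L1 larvae, against 76.1 and 29.9 CPM in N2 embryos (log2 fold change -3.43, SE 0.75, adjusted p = 0.0023). The higher ones were his-37 and his-41, at log2 fold changes of 1.90 and 1.74. The copies are near identical, so the share of each is uncertain, and poly(A)-selected libraries hold only part of these messages. The summed CPM of the list was 305 and 597 in N2 L1 larvae, against 579 and 274 in N2 embryos, and these groups overlap.

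Of the H3.3 genes, his-74 had 10.7 and 16.53 CPM in N2 L1 larvae, against 129.9 and 41.8 CPM in N2 embryos (log2 fold change -2.66, SE 0.64, adjusted p = 0.00417), and lost its call without N2 embryo replicate 1. The most abundant, his-72, had 363 and 636 CPM in N2 L1 larvae, against 2152 and 899 CPM in N2 embryos and was not called (log2 fold change -1.61, SE 0.65, adjusted p = 0.0586). The third tested gene, his-71, had 153 and 226 CPM in N2 L1 larvae, against 87.3 and 87.5 CPM in N2 embryos and was not called (log2 fold change 1.12, SE 0.51, adjusted p = 0.0886). Both larval libraries were above both embryo libraries for his-71, and below them for his-72 and his-74. The linker histone genes his-24 and hil-2 and the variant H2A.Z gene htz-1 fell at log2 fold changes of -3.11, -3.1 and -3.1. All 3 lost their call without N2 embryo replicate 1, his-24 also without N2 L1 replicate 2 and hil-2 also without N2 L1 replicate 1. They were among the most abundant messages of the N2 embryo libraries per length of exon, described below.

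Chromatin regulators fell more often than all genes. Of 33 genes of histone methylation and synMuv repression, 19 were lower (6 without N2 embryo replicate 1 and 9 without N2 L1 replicate 2) and 0 higher, with a median of -1.66. The RbAp48 gene lin-53, a subunit of several repressor complexes, had 111 and 92.8 CPM in N2 L1 larvae, against 1037 and 506 CPM in N2 embryos (log2 fold change -2.92, SE 0.67, adjusted p = 0.00322). Of 19 dosage compensation genes, whose complex lowers transcription from both X chromosomes of the hermaphrodite, 8 were lower (2 without N2 embryo replicate 1 and 1 without N2 L1 replicate 2) and 0 higher. The X-counting receptor gene sex-1 had 52.9 and 23 CPM in N2 L1 larvae, against 411 and 294 CPM in N2 embryos (log2 fold change -3.22, SE 0.66, adjusted p = 0.00155). The condensin gene dpy-27, a core subunit of the complex, had 251 and 121 CPM in N2 L1 larvae, against 389 and 426 CPM in N2 embryos and was not called (log2 fold change -1.13, SE 0.56, adjusted p = 0.116). Of 20 cell death genes, 9 were lower (5 without N2 L1 replicate 1, 1 without N2 embryo replicate 1 and 1 without N2 L1 replicate 2) and 1 higher, the mitochondrial nuclease gene cps-6, at 89.2 and 134 CPM in N2 L1 larvae, against 29.9 and 15.7 CPM in N2 embryos (log2 fold change 2.29, SE 0.59, adjusted p = 0.00603).

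The largest falling family was the fbxb group of F-box genes, whose products choose targets for SCF ubiquitin ligases. The list of F-box and MATH-BTB adaptors as a whole had 133 of 297 lower (83 without N2 embryo replicate 1 and 86 without N2 L1 replicate 2) and 46 higher (28 without N2 L1 replicate 1 and 16 without N2 embryo replicate 1). Split by symbol, a split made after values were seen, 91 of 102 fbxb genes were lower (64 to 94 without each N2 library in turn) and 0 higher, with a median log2 fold change of -3.97. The fbxa genes had 28 of 88 higher (17 without N2 L1 replicate 1 and 10 without N2 embryo replicate 1) and 8 lower (3 without N2 L1 replicate 1, 2 without N2 embryo replicate 1 and 2 without N2 L1 replicate 2), and 72 more were in the L1 table alone. The fbxc genes had 22 of 37 lower (10 without N2 L1 replicate 1, 9 without N2 embryo replicate 1 and 11 without N2 L1 replicate 2). The MATH domain genes (math) had 9 of 19 higher (5 without N2 L1 replicate 1, 2 without N2 embryo replicate 1 and 5 without N2 L1 replicate 2). The sdz genes, some of which encode F-box proteins as well, had 25 of 29 lower and 1 higher. Many fbxb genes are recent copies of each other, so the counts of single members are uncertain.

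The SKP1-related genes (skr), whose products link F-box proteins to the ligase, fell with the fbxb genes. Of 17 tested, 12 were lower and 1 higher, with a median of -3.65, and 9 were lower at the fewest without 1 N2 library. In skr-14 there were 13.2 and 18.2 CPM in N2 L1 larvae, against 463 and 122 CPM in N2 embryos (log2 fold change -4.22, SE 0.75, adjusted p = 0.000687). In skr-12 there were 4.24 and 5.06 CPM in N2 L1 larvae, against 146 and 43.5 CPM in N2 embryos (log2 fold change -4.35, SE 0.74, adjusted p = 0.000537). The exception, skr-3, had 81.5 and 171 CPM in N2 L1 larvae, against 8.65 and 15.4 CPM in N2 embryos (log2 fold change 3.39, SE 0.69, adjusted p = 0.00141). Neighbouring skr genes such as skr-7 to skr-10 are near copies.

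Most of the proteasome list was called lower. Of 33 subunit genes, 21 were lower and 0 higher, with a median of -1.57; the count was 0 without N2 L1 replicate 1, 0 without N2 embryo replicate 1 and 7 without N2 L1 replicate 2. Both N2 L1 libraries were below both N2 embryo libraries for 30 of the 33. The catalytic core gene pbs-1 had 63.5 and 83.5 CPM in N2 L1 larvae, against 641 and 153 CPM in N2 embryos (log2 fold change -2.43, SE 0.66, adjusted p = 0.00847). The lid gene rpn-12 had 34.9 and 53.6 CPM in N2 L1 larvae, against 363 and 105 CPM in N2 embryos (log2 fold change -2.40, SE 0.63, adjusted p = 0.00677). Both lost their call without N2 embryo replicate 1 and without N2 L1 replicate 1.

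Cytosolic ribosomal protein genes were called higher in part. Of 80, 40 were higher, 39 were not called and 1, F54D7.6 (rpl-41.1 in Ensembl), was lower, a call lost without N2 L1 replicate 1 and without N2 embryo replicate 1, with a median of 1.81, and both N2 L1 libraries were above both N2 embryo libraries for 76. The count was 0 without N2 embryo replicate 1, 0 without N2 L1 replicate 2 and 1 without N2 embryo replicate 2, so the calls of single members were lost without any of these 3 libraries. The gene rla-0, for a stalk protein, had 3114 and 6758 CPM in N2 L1 larvae, against 1315 and 1161 CPM in N2 embryos (log2 fold change 2.00, SE 0.76, adjusted p = 0.0456). The summed CPM of the list was 99071 and 235220 in N2 L1 larvae, against 57066 and 42812 in N2 embryos. The larval libraries differed from each other by more than the lower larval library differed from the embryos. Genes of the nucleolus and of ribosome assembly had 4 of 33 lower (0 without N2 embryo replicate 1 and 0 without N2 L1 replicate 2) and 1 higher, lpd-7, which lost its call without each library in turn. Mitochondrial ribosomal protein genes had 1 of 66 lower (0 without N2 L1 replicate 1, 0 without N2 embryo replicate 1, 0 without N2 L1 replicate 2 and 5 without N2 embryo replicate 2) and 0 higher.

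Of 6 Hox genes, 1 was lower (0 without N2 embryo replicate 1, 0 without N2 L1 replicate 2 and 2 without N2 embryo replicate 2), and it was ceh-13, the anterior Hox gene, at 29.4 and 20.9 CPM in N2 L1 larvae, against 155 and 59.6 CPM in N2 embryos (log2 fold change -2.09, SE 0.58, adjusted p = 0.00951). Of 40 genes of epithelial junctions and morphogenesis, 7 were lower (0 without N2 embryo replicate 1, 0 without N2 L1 replicate 2 and 3 without N2 embryo replicate 2) and 1 higher (0 without N2 L1 replicate 1, 0 without N2 embryo replicate 1, 0 without N2 L1 replicate 2 and 2 without N2 embryo replicate 2). Of 21 heat shock genes, 5 were higher (2 without N2 embryo replicate 1 and 2 without N2 L1 replicate 2) and 0 lower, and the HSP90 gene daf-21 had 3533 and 4743 CPM in N2 L1 larvae, against 1319 and 2322 CPM in N2 embryos and was not called (log2 fold change 1.19, SE 0.71, adjusted p = 0.194). Of 11 insulin-like peptide genes, 6 were higher (3 without N2 L1 replicate 1 and 3 without N2 L1 replicate 2) and 2 lower (1 without N2 L1 replicate 1, 1 without N2 embryo replicate 1 and 0 without N2 L1 replicate 2), and 14 more were in the L1 table alone. Here ins-18, linked to larval arrest, had 14.6 and 30.7 CPM in N2 L1 larvae, against 0.362 and 0.818 CPM in N2 embryos (log2 fold change 5.25, SE 0.94, adjusted p = 0.000697). Of 197 nuclear hormone receptor genes, 49 were higher (22 without N2 L1 replicate 1, 9 without N2 embryo replicate 1 and 25 without N2 L1 replicate 2) and 6 lower (3 without N2 L1 replicate 1, 2 without N2 embryo replicate 1 and 3 without N2 L1 replicate 2). The zygotic receptor gene nhr-2 had 21.7 and 8.54 CPM in N2 L1 larvae, against 254 and 149 CPM in N2 embryos (log2 fold change -3.73, SE 0.71, adjusted p = 0.00101). The higher share of this family, 25.4% by symbol, was near that of all genes.

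Of 19 heterochronic genes, which set the order of larval cell fates, 1 was higher (0 without N2 L1 replicate 1, 2 without N2 L1 replicate 2 and 3 without N2 embryo replicate 2) and 4 were lower (0 without N2 L1 replicate 2 and 1 without N2 embryo replicate 2). The gene lin-14, whose product marks the L1 stage and falls within it in growing larvae, was uneven, at 313 and 24.1 CPM in N2 L1 larvae, against 20.7 and 109 CPM in N2 embryos, and was not called (log2 fold change 1.38, SE 0.89, adjusted p = 0.224). N2 L1 replicate 1 stood above all other N2 libraries for this gene and N2 L1 replicate 2 below N2 embryo replicate 2. Without N2 L1 replicate 1 the fold change was -1.43, a reversed direction.

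Markers were checked against the labels. The early embryo markers end-1, end-3, tbx-37, tbx-38, ceh-51, pes-10 and nos-2 were all lower in N2 L1 larvae, with 6.78 CPM as the highest larval value; end-3 lost its call without N2 embryo replicate 1 and without either N2 L1 library, and med-1 was not analysed here. Markers of the larval gut were at 123 to 2752 CPM in N2 L1 larvae for lys-1, spp-5 and asp-1. The gut markers cpr-1 and mtl-2, in the L1 table alone, were lower. In N2 L1 larvae cpr-1 had 80.6 and 60.6 CPM, and mtl-2 had 5.94 and 16 CPM. Markers of adult gut and adult cuticle were at low levels. The vitellogenin genes vit-1 and vit-5 were between 0.234 and 2.75 CPM over all N2 libraries, and the oocyte receptor gene rme-2 was between 2.24 and 4.72 CPM. In the L1 table alone, vit-2, vit-3 and vit-6 were between 1.54 and 3.04 CPM in N2 L1 larvae, and vit-4 was not analysed here. The oocyte genes oma-1 and oma-2, whose maternal RNA embryos inherit, were counted in both stages, oma-1 at 23 and 9.44 CPM in N2 L1 larvae, against 127.5 and 109 CPM in N2 embryos, and oma-2 at 11.9 and 9.67 CPM in N2 L1 larvae, against 49.7 and 32.7 CPM in N2 embryos. The adult cuticle genes bli-1 and bli-2 were in the L1 table alone, at 1.91 CPM or less, and col-19 and col-7 were not analysed here. The 1 tested gene of the adult cuticle list had 2.67 and 8.99 CPM in N2 L1 larvae, against 2.17 and 3.98 CPM in N2 embryos. Of 5 tested sperm genes 2 were higher (1 without N2 L1 replicate 1, 0 without N2 embryo replicate 1, 1 without N2 L1 replicate 2 and 1 without N2 embryo replicate 2), and the highest value of the list was 7.03 CPM.

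Among the 2914 genes of the L1 table alone, the median counts were 39 and 25 in the N2 L1 libraries, and 33.0% were on chromosome V. Of the 13335 tested genes, 2447 were on that chromosome. The most abundant was the cathepsin B-like gene cpr-2, at 207 and 91.7 CPM, followed by far-7, a gene for a fatty acid and retinol binding protein, at 113 and 149 CPM. The collagen gene col-147 was at 98.5 and 145 CPM, and the neuropeptide-like gene nlp-27 at 81.6 and 138 CPM. The others of the 8 most abundant with a symbol were arf-1.1, nspe-7, cpr-1 and nas-9, between 32.4 and 167 CPM. These genes have no listed embryo value, so no fold change is given.

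Among the 357 genes of the embryo table alone, the median counts were 20 and 14 in the N2 embryo libraries. The 3 T-box genes tbx-40, tbx-39 and tbx-35 were among the 8 most abundant with a symbol, at 8.94 and 1.74, 5.68 and 0.889, and 4.78 and 1.49 CPM. The others were the sdz genes sdz-32 and sdz-19, the F-box genes fbxb-117 and fbxc-37, and the MATH-BTB gene bath-33, between 1.35 and 7.78 CPM. In all 8, N2 embryo replicate 1 was above N2 embryo replicate 2. The levels of both sets are set by what the authors listed per stage, and no listed gene had fewer than 2 libraries with at least 10 counts.

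Levels of different genes were compared per kilobase of exon. By the mean of both libraries, the most abundant message of N2 L1 larvae was that of the translation elongation factor gene eef-1A.1. It was at 7178 CPM per kb, against 4088 CPM per kb in N2 embryos, and was not called (log2 fold change 0.81, SE 0.87, adjusted p = 0.472). In N2 L1 replicate 2 alone, F54D7.7 (rpl-41.2 in Ensembl) was above eef-1A.1 per kb. In N2 embryos, by the mean of both libraries, the most abundant was hmg-1.1, for a chromatin protein of the HMG box type, at 920 CPM per kb in N2 L1 larvae against 5543 CPM per kb in N2 embryos, and eef-1A.1 was second. In N2 embryo replicate 2 alone, eef-1A.1 was above hmg-1.1 per kb. Next came the linker histone gene his-24 at 458 against 3958 CPM per kb, the caveolin gene cav-1 at 317 against 3577, Y82E9BR.3 at 3102 against 3475, and htz-1 at 375 against 3214. Of these, hmg-1.1, his-24, cav-1 and htz-1 were called lower, and each lost its call without N2 embryo replicate 1, hmg-1.1 also without either N2 L1 library.

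The chromosomes differed in their share of called genes. On chromosome V 29.8% of tested genes were higher and 12.63% lower, and on the X chromosome 29.1% were higher and 11.97% lower. On chromosome I 14.8% were higher and 20.1% lower. The median log2 fold change was 0.57 on V, 0.56 on X and -0.40 on I. Without each N2 library in turn these medians were 0.48 to 0.80 on V, 0.39 to 0.90 on X and -0.48 to -0.21 on I. The shares themselves moved with the total number of calls, to 12.4% higher on V, 10.1% on X and 5.14% on I without N2 embryo replicate 1. On I the excess of lower over higher genes turned round, to 5.14% higher and 3.46% lower without N2 embryo replicate 1, and to 9.14% higher and 7.14% lower without N2 L1 replicate 2. Of the genes of the L1 table alone, 33.0% were on V and 13.59% on X, against 21.57% and 13.73% of those of the embryo table alone. Among the 13335 tested genes 2447 were on V and 1989 on X. Both one-table sets thus held a larger share on V, and a smaller share on X, than the tested genes.

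**Figure D4:**
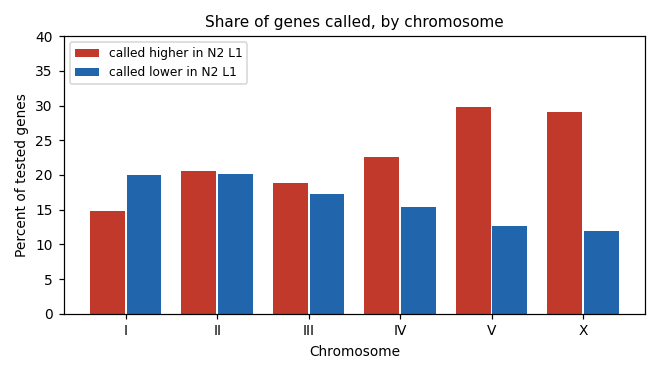
Percent of tested genes (vertical axis, from 0) on each nuclear chromosome that were called higher (red, left bars) or lower (blue, right bars) in N2 L1 larvae than in N2 embryos. Chromosomes V and X have the higher red bars, 29.8% and 29.1%, and chromosome I has the lowest, 14.8%.

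Transcript length moved with the replicates. Tested genes were cut into 4 length classes of near equal size by exon length. The median log2 ratio of N2 L1 replicate 2 over replicate 1 was 0.68 in the shortest class (52 to 938 bases) and -0.74 in the longest (2132 to 56044 bases). In the N2 embryo libraries the ratio of replicate 2 over replicate 1 was -0.52 in the shortest and 0.40 in the longest class. For the stage change itself, the median log2 fold change was 0.24 among the shortest and -0.08 among the longest genes. Without N2 L1 replicate 2 these were -0.25 and 0.23, and without N2 L1 replicate 1 they were 0.50 and -0.51. The summed ribosomal protein list, of short genes, and the single long gene lin-14 differed between replicates in these directions. The part of length in their changes was not tested.

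The same step was measured in FAS43, in libraries that the N2 comparison does not use, although the fit shares their spread. In FAS43, 2113 genes (15.8%) were higher and 1288 (9.66%) lower in L1 larvae than in embryos, 25.5% in all. These counts were 719 and 17 without FAS43 L1 replicate 2, 237 and 204 without FAS43 embryo replicate 2, and 515 lower without FAS43 embryo replicate 1. Of the 3014 genes higher in N2 L1 larvae, 3002 (99.6%) had a positive change in FAS43, 1926 were called higher there and 0 lower. Of the 2157 genes lower in N2 L1 larvae, all 2157 had a negative change in FAS43, 1135 were called lower and 0 higher. The median FAS43 change was 2.53 for the genes higher in N2 and -1.79 for those lower in N2. The Pearson correlation of both changes across genes was 0.925, a description, as genes are not independent. A test of the difference between the steps called 0 genes (0%) by edgeR, with 199 genes at an unadjusted p under 0.05, and DESeq2 called 0 as well. These 199 are fewer than the 0.05 share of the 13335 tested genes that no difference at all would give. The test can thus miss differences, and the 0 does not show that the steps are equal. Even his-72, which is mutated in FAS43 and moved in opposite directions, did not pass.

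**Figure D5:**
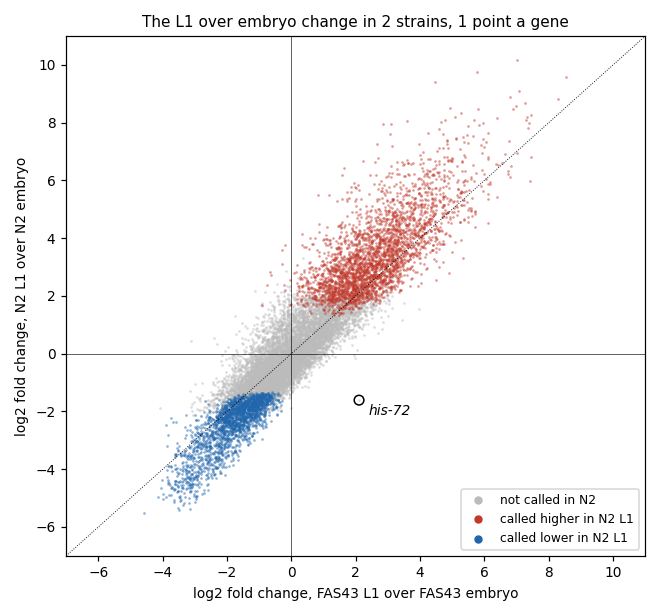
Log2 fold change of L1 over embryo in N2 (vertical axis) against that in FAS43 (horizontal axis), 1 point per gene, with the line of equal change dotted. Red and blue points were called higher and lower in N2 L1 larvae; all blue points and 3002 of the 3014 red ones have the same sign in FAS43, and his-72 (ringed), which is mutated in FAS43, does not.

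The groups that lead the N2 comparison were called in the same direction in FAS43, in which neuropeptides had 69 of 89 higher and gut digestion 33 of 46. Early fate regulators had 17 of 33 lower, DNA replication 17 of 37, and F-box and MATH-BTB genes 122 of 297. The ribosomal protein and proteasome lists, whose N2 calls were nearly all lost without some single N2 libraries, had 0 of 80 higher and 3 of 33 lower. Their median log2 fold changes in FAS43, 1.245 and -1.071, had the same sign as in N2, 1.812 and -1.575.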

How the data were processed

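RNA of both stages of both strains was extracted with Trizol, and a stranded mRNA kit was used on 1000 ng of total RNA to make libraries read at 50 bases, per the labels' protocols. The authors deposited raw counts per gene in 1 table per stage. The build WBcel235 and the tools TopHat2 (2.0.13), HTSeq (0.6.1) and edgeR (3.10.5) are named, with no role, per the submitters' processing notes; the strand setting of the counting is not given in the sources used here, so a gene and its antisense partner may share reads. The comparison across stages assumes that both tables were counted alike. The 8 columns of normalized values were not used.

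The test ran in edgeR 4.0.16 (R 4.3.3) on the counts of the 13335 shared genes: TMM factors, filterByExpr (minimum count 10, which kept all genes), 1 quasi-likelihood fit of all 8 libraries with group as the only term and 4 residual degrees of freedom, and Benjamini-Hochberg adjustment over all genes. SE is the size of the log2 fold change divided by the root of the F statistic. The fit shares the spread over genes. Gene positions, classes and exon lengths come from Ensembl release 115 (WBcel235), which matched 13230 of the shared genes. Lists are described by counts and medians, with no set test. On simulated counts for 13334 genes with 200 changed, 0% of 2-fold, 18% of 4-fold, 66% of 8-fold and 100% of 32-fold changes were recovered, with 4 false calls. Far more genes, 5171, were called in the data, so these rates need not hold there.

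The members, the 50 lists and the tests were chosen with earlier results of these data known. The rule for named genes took the 8 largest called changes in each direction with a mean of at least 5 CPM, a symbol and no overlap between groups, the 2 largest called changes in each direction and the most abundant member of each list (at least 1 CPM), the 5 largest called differences between strains in each direction (0 were called), and the 8 most abundant genes with a symbol of each one-table set. Genes named beyond it were stage markers, the most abundant messages, or chosen after their values were seen: flp-14, eat-4, unc-17, unc-25, myo-1, myo-3, unc-15, unc-120, asp-5, elt-2, lin-14, his-71, oma-1, oma-2, cdk-1, mcm-2, mcm-7 and the skr genes, and the families counted by symbol.

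Alternatives were RLE size factors, DESeq2 1.42.0, a filter of at least 1 CPM in at least 2 libraries, no filter, library sizes over each whole table, no ribosomal RNA genes, each strain alone, a replicate block, and each replicate left out in turn.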

Additional observations from a re-analysis of the deposited data

Results flagged for a closer look

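The H3.3 gene his-72 differed between the strains in direction. Its log2 fold change of L1 over embryo was -1.61 in N2 and 2.1 in FAS43, a difference of -3.71 (unadjusted p = 0.00102 and adjusted p = 0.999 by edgeR's quasi-likelihood test of the difference). Its level was 363 and 636 CPM in N2 L1 larvae, against 2152 and 899 CPM in N2 embryos. In FAS43, in which the gene is mutated, it was 3.56 and 8.18 CPM in L1 larvae, against 1.56 and 1.17 CPM in embryos. Both N2 L1 libraries were below both N2 embryo libraries, and both FAS43 L1 libraries were above both FAS43 embryo libraries. The N2 change was not called, and the difference did not pass the adjustment over all genes.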

How the results depend on the processing

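Among genes called in N2, leaving out each N2 library in turn gave 1174 to 2954 higher and 509 to 2418 lower genes, against 3014 and 2157 with all; the lowest counts were without N2 embryo replicate 1, and 1957 and 803 were called without N2 L1 replicate 2. In FAS43 the same gave 237 to 2316 higher and 17 to 1445 lower, against 2113 and 1288. DESeq2 called 2108 genes lower in FAS43, and 3374 higher and 2837 lower in N2. RLE size factors, the filter of 1 CPM, other library sizes, leaving out ribosomal RNA genes and N2 libraries alone kept the N2 counts between 2996 and 3094 higher and between 1944 and 2366 lower; the fit with no filter was identical to the reported one.

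Replicate numbers did not pair the libraries: replicate deviations correlated between groups at -0.523 to 0.208 (-0.113 between N2 embryos and N2 L1 larvae). A replicate block gave 2757 higher and 1735 lower genes over all libraries, and 2589 and 993 with the block in the N2 libraries alone, an alternative chosen after seeing the data. Crossing the numbers there, also chosen after seeing the data, gave 3216 and 2387. No gene passed the test of the difference between strains under any alternative run.

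Of 203 genes with alternatives, 188 of them called, 71 lost their call without N2 embryo replicate 1, 56 without N2 L1 replicate 2, 48 without N2 L1 replicate 1 and 17 without N2 embryo replicate 2. Among these, lin-14 reversed, to -1.43 without N2 L1 replicate 1 (3.02 without N2 embryo replicate 2). Another 16 genes of the naming rule, not called and with no fold change given above, were not followed under all alternatives. Of these, 11 changed sign without 1 N2 library, such as ptc-1 (1.48, and -0.19 without N2 L1 replicate 1). The cause of these losses was not tested; fits with 1 library in a group assume that it varies like the other groups. At 2 libraries a group, changes of 2-fold were not recovered in simulated counts. Only 200 genes were changed there, against 5171 called in the data, so recovery in the data may differ.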

Other observations

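Pseudogenes and noncoding RNAs were called in N2 as well. Of 368 tested pseudogenes 55 were higher and 43 lower in N2 L1 larvae, with a median log2 fold change of 0.50. Of 46 long intergenic noncoding RNA genes 13 were higher and 1 lower, and of 69 genes annotated as other noncoding RNA 17 were higher and 1 lower. Of 32 small nucleolar RNA genes 5 were higher and 0 lower. The counts of these classes were not taken without each N2 library in turn, so their dependence on single libraries is not known. The 12699 protein-coding genes had 22.9% higher and 16.6% lower.

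Genes with only a sequence name were among the largest changes too. C50F7.5 had 208 and 232 CPM in N2 L1 larvae, against 0.0724 and 0.427 CPM in N2 embryos, and Y106G6D.2 had 2.00 and 1.07 CPM in N2 L1 larvae, against 111.8 and 30.5 CPM in N2 embryos. Their log2 fold changes were 9.75 and -5.52, the second of these the largest fall of all tested genes. Subunit genes of the Mediator complex (mdt) had 11 of 20 lower and 1 higher, and 0 lower without N2 embryo replicate 1, 4 without N2 L1 replicate 1 and 6 without N2 L1 replicate 2.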
